A study of Drosophila melanogaster with 6 samples.

Results

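HMR (Hybrid male rescue) peaks at autosomal promoters that were called both before and after copper induction of the HMR transgene were examined. The members were chosen by position, as intervals of the induced peak list on a chromosome other than X, Y and 4 that overlapped an uninduced interval by at least 1 bp and had their centre within 250 bp of an annotated transcript start. There were 434 such peaks among the 1576 autosomal peaks and the 1981 peaks in all of the induced list. They come from SL2 (S2) cells, a line grown from D. melanogaster embryos. The cells of both conditions carried FLAG-HA-HMR behind pMT, a metallothionein promoter that copper switches on, and were selected with hygromycin (the methods add a Myc-LHR transgene, which the sample labels do not name). The induced cells received 250 µM CuSO4 for 20 to 24 h and the uninduced cells received no copper, so copper and transgene expression cannot be told apart. Chromatin was precipitated with an antibody to HMR, from 2 ChIP and 2 input libraries of induced cells and 1 of each of uninduced cells. Each condition has 1 deposited peak list, whose condition was read from its name, in which every peak is 200 bp wide and has no height, score or read count. The depth behind a peak is therefore unknown, no value below has a replicate error or a p-value, and peak positions offer no check of the cell type. Shares are given with Wilson 95% intervals, which cover counting error only, as neighbouring peaks and peaks of 1 list are not replicates.

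HMR is a chromatin protein known as a hybrid incompatibility factor between D. melanogaster and D. simulans. It forms a complex with LHR and the heterochromatin protein HP1a, is found at centromeric and pericentric chromatin, and is also found at sites along the gene-rich arms. In flies many housekeeping genes lie head to head, so that a short stretch between their starts serves as the promoter of both genes, called a divergent pair here. Such promoters often carry short core elements. DREF binds the DRE, BEAF-32 binds clusters of CGATA, M1BP binds Motif 1, and the insulator protein Su(Hw) and the GAGA factor bind words of their own.

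The sequences below are shown because the comparisons of motifs and gene pairs turn on them. Only members with a marked match are shown, so they do not tell how common a match is. CGATA was in 40.8% of all members. It is absent from RpL23A and Dbp80 of the first 12 members, and from ClpP and mor at divergent pairs. Each is the RefSeq reference (Release 6, dm6) under a member, without bases annotated as UTR, read 5′ to 3′ on the strand of the gene named. RpL15 (chr3L:27267070-27267254) and RpL10 (chr3L:23095472-23095664) encode proteins of the large ribosomal subunit and stand among the 12 members listed first. CIA30 (chr3R:29736767-29736964), a complex I assembly factor, has its peak within 250 bp of both starts of a divergent pair. The genes pths (chr2L:21142996-21143195) and Atpalpha (chr3R:20948566-20948713), the latter a sodium pump subunit, were the first on their arms to have 3 or more matches to CGATA in the full peak. Capitals mark CGATA on either strand, which reads TATCG on the other.
RpL15: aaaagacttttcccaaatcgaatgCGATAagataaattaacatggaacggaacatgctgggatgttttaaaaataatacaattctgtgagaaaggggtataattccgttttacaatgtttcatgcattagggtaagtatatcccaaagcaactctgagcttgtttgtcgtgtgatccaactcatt
RpL10: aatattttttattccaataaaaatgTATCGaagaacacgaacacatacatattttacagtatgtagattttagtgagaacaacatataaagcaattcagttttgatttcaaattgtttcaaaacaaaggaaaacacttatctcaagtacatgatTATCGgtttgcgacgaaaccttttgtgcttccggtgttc
CIA30: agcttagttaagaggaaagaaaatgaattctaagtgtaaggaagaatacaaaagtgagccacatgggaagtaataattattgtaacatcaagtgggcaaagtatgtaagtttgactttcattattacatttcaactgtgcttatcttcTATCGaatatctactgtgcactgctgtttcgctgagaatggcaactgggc
pths: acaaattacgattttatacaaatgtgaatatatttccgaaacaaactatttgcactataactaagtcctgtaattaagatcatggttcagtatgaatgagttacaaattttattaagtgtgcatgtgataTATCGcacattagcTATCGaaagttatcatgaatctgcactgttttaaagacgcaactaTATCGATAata
Atpalpha: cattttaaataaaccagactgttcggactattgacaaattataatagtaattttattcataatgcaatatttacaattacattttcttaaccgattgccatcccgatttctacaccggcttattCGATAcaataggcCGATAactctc

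Longer elements are shown in another 5 members, again only where the shown bases hold a match. Motif 1 was in 3.0% of all members. Lamp1 (chr2L:21573193-21573388), a lysosomal membrane protein, and ATPsynC (chr3R:31219671-31219870), the ring subunit of ATP synthase, hold Motif 1, which is in capitals. Sar1 (chr3R:22356423-22356622), the small GTPase of the COPII coat, holds 2 matches to Motif 7, a core promoter element, in capitals. CG32301 (chr3L:2244205-2244404) and pyd (chr3R:8863291-8863490), which encodes the junction protein Polychaetoid, hold Su(Hw) matches in capitals, 2 of them in CG32301. The last 3 were chosen after their values were seen.
Lamp1: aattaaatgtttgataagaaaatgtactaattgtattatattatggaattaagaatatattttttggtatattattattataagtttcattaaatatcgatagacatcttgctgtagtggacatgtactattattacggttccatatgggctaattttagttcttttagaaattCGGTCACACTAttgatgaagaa
ATPsynC: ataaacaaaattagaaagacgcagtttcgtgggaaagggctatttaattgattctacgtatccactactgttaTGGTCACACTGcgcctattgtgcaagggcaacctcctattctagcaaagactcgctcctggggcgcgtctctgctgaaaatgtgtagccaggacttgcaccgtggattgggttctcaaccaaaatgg
Sar1: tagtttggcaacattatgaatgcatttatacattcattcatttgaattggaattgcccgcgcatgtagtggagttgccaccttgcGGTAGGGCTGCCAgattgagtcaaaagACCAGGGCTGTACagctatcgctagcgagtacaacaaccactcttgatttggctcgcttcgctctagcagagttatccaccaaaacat
CG32301: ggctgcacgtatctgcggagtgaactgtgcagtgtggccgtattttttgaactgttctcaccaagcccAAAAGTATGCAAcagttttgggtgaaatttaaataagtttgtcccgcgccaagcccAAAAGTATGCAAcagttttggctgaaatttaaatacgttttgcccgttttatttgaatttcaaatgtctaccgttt
pyd: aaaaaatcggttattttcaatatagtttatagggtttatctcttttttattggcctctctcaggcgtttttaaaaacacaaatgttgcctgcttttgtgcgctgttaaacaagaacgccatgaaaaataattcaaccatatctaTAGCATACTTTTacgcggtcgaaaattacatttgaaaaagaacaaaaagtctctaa

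Overlap and start distance chose the members, so the following counts describe the choice. Of all autosomal induced peaks 53.8% overlapped an uninduced peak, of those at a start 53.6% (434 of 810), and of those away from a start 54% (414 of 766). These shares were used by the rule and nothing is read from them. Of 574 autosomal uninduced peaks at a start, 429 overlapped an induced peak (74.7%, 71.0 to 78.1). Every member had a single uninduced counterpart, and for 425 of them the counterpart was also centred within 250 bp of a start. Just inside the start limit were the peaks of cnc (249 bp), a stress response factor of the Nrf family, of capu (249 bp), an actin nucleator, and of Sf3a1 (247 bp), a splicing factor. Shared peaks just outside lay 253 bp from achi, 256 bp from CG10139 and 257 bp from mei-W68. The smallest overlaps were 10 bp at SCCRO3, 12 bp at CG3764 and 43 bp at spg, whereas the induced promoter peaks nearest to an uninduced peak without touching it missed it by 17 bp at Daxx, 36 bp at CG8441 and 39 bp at Asx.

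The members were spread over the 4 large arms, with 99 on 2L, 116 on 2R, 98 on 3L and 121 on 3R. Nearly all sat at the start of a protein-coding gene (414 of 434), and 16 sat at noncoding RNA genes, 2 at pseudogenes, 1 at a snoRNA gene and 1 at a tRNA gene. Of all 15233 genes on the arms, 11669 are protein-coding. In 12 members genes tied for the nearest start, and ties went to protein-coding genes first. Their centres were mostly intergenic (301), then in 5′ UTRs (70), introns (48), noncoding exons (10), coding exons (3) and 3′ UTRs (2). These places were not counted for other peaks or starts. The centre lay upstream of the nearest start in 373 members (85.9%, 82.4 to 88.9), at a median of -83 bp, with the middle 50% between -122 and -41 bp. Induced-only promoter peaks had nearly the same median (-83.5 bp). The uninduced counterparts were centred a median of -98.5 bp from the same starts, but these starts were picked as the nearest to the induced centre, which favours that centre. An annotated transposable element was overlapped by 9 members (2.07%, 1.09 to 3.89). The same held for 14 shared peaks away from starts (3.38%, 2.02 to 5.60) and 1 induced-only promoter peak (0.266%, 0.047 to 1.49). The lists were made from uniquely mapped reads, which repeated sequence rarely yields, and the effect on these counts was not tested.

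**Figure D1:**
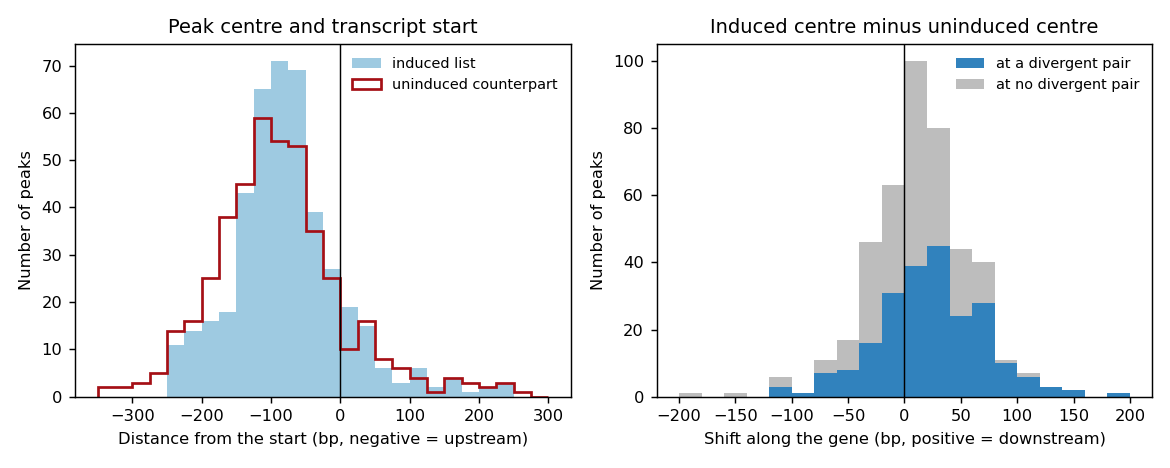
Left, number of members by distance of the peak centre from the nearest transcript start in bp, for the induced list (filled) and the uninduced counterparts (line), with medians of -83 and -98.5 bp. Right, number of members by induced minus uninduced centre in bp along the gene, stacked by whether the member lies at a divergent pair. The start was chosen from the induced centre, and more of the 434 members lie right of 0 than left of it.

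The 12 members that stand first in the induced list are given with their line in both lists, although the sources do not define the order of lines. The first was RpL15, at line 5 of the induced and line 3 of the uninduced list, with its centre 86 bp upstream of the start in one list and 87 bp in the other. RpL5 followed at lines 8 and 6, at -86 and -97 bp. The next were MED21, a Mediator subunit (lines 10 and 17), CG40228 (11 and 18), l(3)80Fj (19 and 15) and RpL23A (20 and 31). They were followed by Maf1, the repressor of RNA polymerase III (22 and 24), the translation factor gene eEF5 (23 and 47) and the DEAD-box helicase gene Dbp80 (25 and 22). CG12567 (28 and 35), UQCR-11 of respiratory complex III (29 and 30) and RpL10 (30 and 27) closed the 12. Across all 434 members the line numbers of both lists correlated with Spearman's rho 0.82, as a description of points that share each list. Members fell late as well as early, from line 5 to line 1960, with a median of 623.5, which was the same for shared peaks away from starts and 1199 for induced-only promoter peaks.

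Counted against genes and their starts, members were concentrated beside the centromeres. The centromere-side stretches are the last 1.5 Mb of 2L, the first 5.5 Mb of 2R, the last 5 Mb of 3L and the first 4 Mb of 3R, which hold few genes and much heterochromatin. They held 71 members (16.4%, 13.2 to 20.1), 4 of 376 induced-only promoter peaks (1.06%, 0.414 to 2.70), 27 of 414 shared peaks away from starts (6.52%, 4.52 to 9.32), 38 of 352 induced-only peaks away from starts (10.8%, 7.97 to 14.5) and 1.22% of 15836 protein-coding starts. The 4 arms hold 108990206 bp, so by length these stretches are a far larger part than by starts. The share of members is close to that part by length, and the shares of both classes away from starts are below it. Of the 129 protein-coding genes there, 68 had a start within 250 bp of a member (52.7%, 44.1 to 61.1), compared with 486 of 11540 genes elsewhere (4.21%, 3.86 to 4.59). An induced-only promoter peak was found at 2 of these 129 genes (1.55%) and at 466 of the 11540 others (4.04%). By arm, the share with a member was 43.2% of 37 genes on 2L, 60% of 50 on 2R, 50% of 34 on 3L and 62.5% of 8 on 3R, and no arm reached 5% in its remainder.

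**Figure D2:**
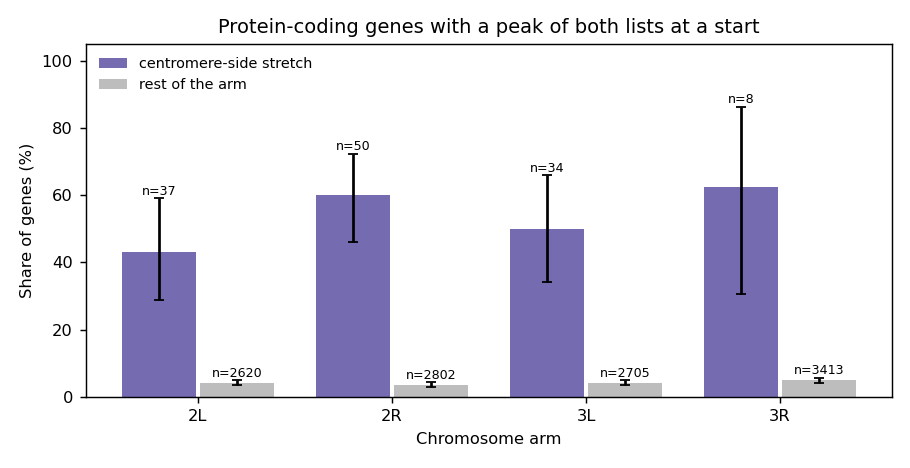
Share of protein-coding genes with a start within 250 bp of a member, by chromosome arm, in the centromere-side stretch and in the rest of the arm, with Wilson 95% intervals and the number of genes above each bar. The centromere-side shares run from 43.2% to 62.5% and those of the remainder from 3.64% to 4.92%.

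The genes with these centromere-side members serve many functions, and long known heterochromatic genes were among them. They include rl, the ERK kinase of the MAP kinase pathway, lt, a subunit of the lysosomal tethering complex HOPS, and cta, a G protein alpha subunit. Parp1 encodes the poly(ADP-ribose) polymerase, Set1 a histone H3 lysine 4 methyltransferase, Haspin a histone H3 kinase and Nipped-A a scaffold subunit of the SAGA complex. They were named after their values were seen. Centromere-side members stood early, at a median line of 100 of the induced list, and the other 363 at a median line of 752. Of the 88 members in the first 198 lines of that list, 48 were centromere-side. They were centred closer to the start (median -63 bp against -89 bp), and their GC content was lower (median 32.0% against 36.5%). The windows at all centromere-side starts were also GC-poor, with a median of 32.5% against 39.5% at other starts.

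Divergent gene pairs held 224 of the 434 members (51.6%, 46.9 to 56.3). Here the nearest start belongs to a protein-coding gene, and a start of another protein-coding gene lies 0 to 1000 bp upstream on the opposite strand. The share was 45.5% for induced-only promoter peaks (40.5 to 50.5) and 31.8% over all protein-coding starts (31 to 32.5). Each pair adds 2 starts to the last share, and with the genes of a pair counted once 21.1% of 9556 promoter regions were pairs. Centromere-side genes rarely form such pairs (2.59% of 193 starts), and only 1 of 71 members there lay at one. In the rest of the arms the share was 61.4% for members (56.3 to 66.3), 46% for induced-only promoter peaks (41.0 to 51.0) and 32.1% for starts (31.4 to 32.8), and these intervals do not overlap. By arm, the share over all members was 53.5% on 2L, 40.5% on 2R, 51.0% on 3L and 61.2% on 3R.

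**Figure D3:**
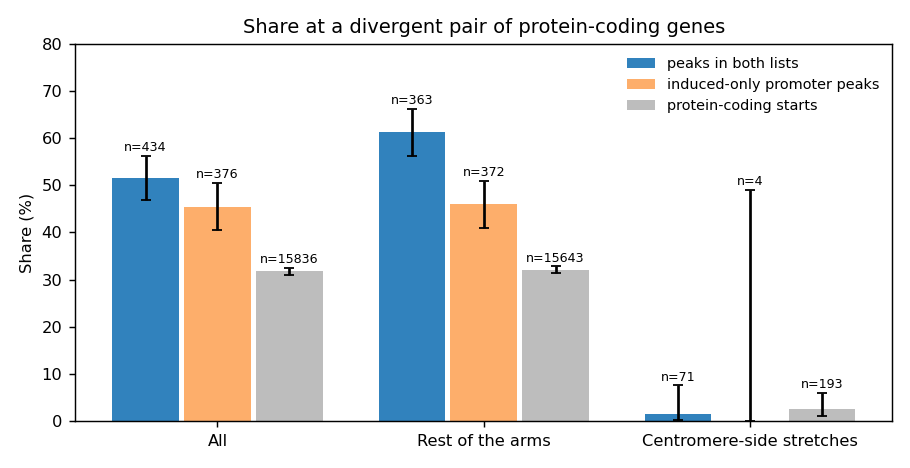
Share at a divergent pair of protein-coding genes for members, induced-only promoter peaks and all protein-coding starts, over the 4 arms, outside and inside the centromere-side stretches, with Wilson 95% intervals and the number of peaks or starts above each bar. Outside the stretches the shares are 61.4%, 46% and 32.1%.

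The starts of the pairs with a member lay a median of 349 bp apart, from 2 to 981 bp, against 323 bp for pairs of induced-only peaks and 316.5 bp over all starts at a pair. In 195 of the 224 members the centre lay between both starts. By the definition of a pair this holds for any centre upstream of its nearest start, so the count restates the upstream share. The centre was within 250 bp of both starts in 110 members (25.3%) and in 95 induced-only promoter peaks (also 25.3%). The 10 of these first in the list show the kinds of genes. The closest pair was dpa, which encodes the replicative helicase subunit Mcm4, and didum, which encodes myosin V, with starts 2 bp apart and the peak 75 bp inside dpa. RpL7 and Ripalpha, a relative of the human importer of replication protein A, started 30 bp apart, MAN1 of the inner nuclear membrane and the adaptor gene Chi 31 bp apart, and the glycolytic Pglym78 and CG11882 76 bp apart. The trans-spliced precursors pre-mod(mdg4)-E and pre-mod(mdg4)-Y of an insulator protein started 121 bp apart. The respiratory COX5A and the RNA-binding glo were 179 bp apart, the mitochondrial protease gene ClpP and CtsL4 198 bp, and CIA30 and CG7601 220 bp. The widest were fl(2)d of the m6A writer complex with CG13339 (305 bp) and the Brahma complex gene mor with Hel89B (385 bp). The 224 members lay at 222 distinct pairs. CG1344 with hrm and ova with eEF1delta had 2 members each, 1 near each start, and the 2 starts were 861 and 815 bp apart. Only gus, a substrate adaptor of a ubiquitin ligase, had 2 members at the starts of a single gene.

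Ribosomal protein genes were the gene list most often found with a member. The lists were made by gene symbol, so genes of the same function under other symbols are not counted. A member lay within 250 bp of a start in 24 of 77 ribosomal protein genes (31.2%, 21.9 to 42.2), beside 554 of all 11669 protein-coding genes (4.75%, 4.38 to 5.15). Induced-only promoter peaks lay at 9 of the 77 ribosomal protein genes, beside 468 of all 11669 protein-coding genes. They too were thus more frequent at ribosomal protein genes than at protein-coding genes in general. All 4 centromere-side genes of the list (RpL5, RpL15, RpL21 and RpL38) had a member, and 20 of the other 73 did (27.4%, 18.5 to 38.6). Among the others were RpL3, RpL4, RpL7, RpL10, RpL13A, RpL14, RpL23A, RpL26, RpL30, RpL36A, RpL39, RpL41, RpS3, RpS4, RpS12, RpS13, RpS16 and RpS27A. Their centres ranged from 214 bp upstream of the start (RpS3) to 25 bp downstream (RpL26). They stood anywhere from line 5 (RpL15) to line 1553 (RpL4) of the induced list.

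Genes of oxidative phosphorylation came next among the larger lists, with 13 of 66 (19.7%, 11.9 to 30.8). Induced-only promoter peaks lay at 2 of the 66, and at 468 of all 11669 protein-coding genes. They were the ATP synthase genes ATPsynB, ATPsynC, ATPsynE and ATPsyngamma, COX5A of complex IV, UQCR-11 of complex III, and the complex I genes ND-13A, ND-51, ND-AGGG, ND-B8, ND-MLRQ, ND-MWFE and ND-SGDH. Of these, 3 of the 4 centromere-side genes of the list and 10 of the 62 others had a member. Mitochondrial ribosomal proteins differed from the cytoplasmic ones, with 2 of 62 (mRpL13 and mRpL37, 3.23%, 0.889 to 11.0). Translation initiation had 5 of 36 (eIF3c, eIF3m, eIF4B, eIF4EHP and eIF4G2) and the proteasome 4 of 42 (Prosalpha6, Prosbeta5, Rpn5 and Rpn9), with intervals of 6.08 to 28.7% and 3.77 to 22.1%. In the list around the ring-shaped chromosome complexes 3 of 11 genes had a member (27.3%, 9.75 to 56.6). These were vtd, the cohesin subunit Rad21, Nipped-B, the cohesin loader, and SMC6, and the first 2 are centromere-side. Outside the centromere-side stretches 1 of 9 had a member (11.1%, 1.99 to 43.5), an interval that includes the 4.21% of all protein-coding genes there.

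In 3 other lists a single gene of the symbols searched had a member, and their intervals include the 4.75% of all protein-coding genes. These were Mcm2 of 28 replication genes (3.57%, 0.633 to 17.7), Hsp83 of 18 heat shock genes (5.56%, 0.988 to 25.8) and pzg of 16 genes for insulator and promoter-binding factors (6.25%, 1.11 to 28.3). The symbols leave dpa, the Mcm4 gene, out of replication and Hsc70-4, a heat shock cognate, out of heat shock, and both had a member. Hsc70-4 was named after its values were seen. Of 114 histone genes 1 had a member (His3:CG33866, 0.877%, 0.155 to 4.80). None of 14 genes for heterochromatin proteins and partners of HMR had one, which allows a share of up to 21.5%. Members lay at 1 of 266 tRNA genes and 2 of 267 snoRNA and snRNA genes, beside 3.83% of all 15233 genes. Per the methods only uniquely mapped reads were kept. Peaks at genes with near-identical copies, such as histone genes and many tRNA genes, may therefore go uncalled, which was not tested. Gene symbols say nothing of expression in these cells, which was not analysed here.

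**Figure D4:**
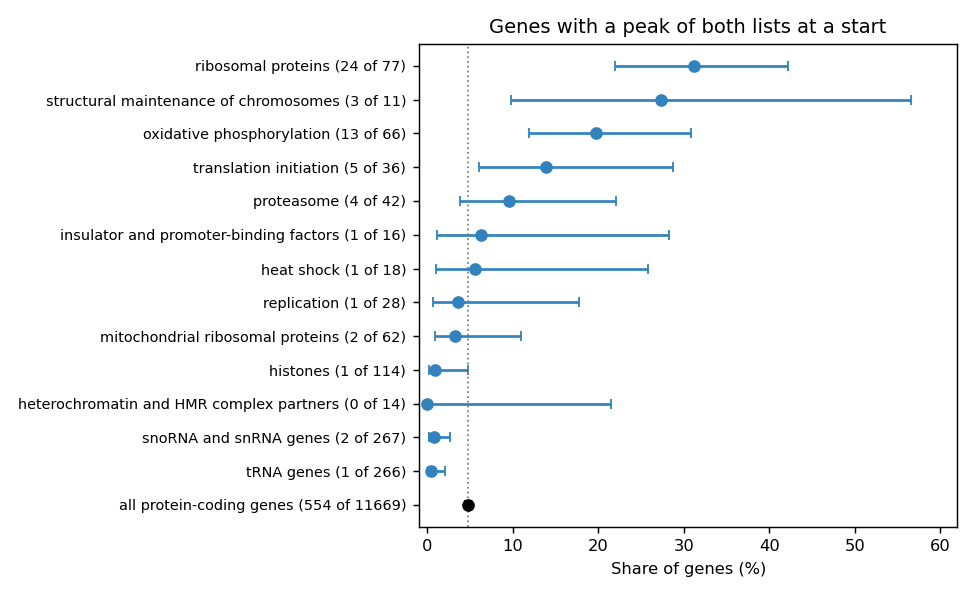
Share of the genes of each list with a start within 250 bp of a member, with Wilson 95% intervals and the counts beside the names. The dotted line is the share over all protein-coding genes, 4.75%, which lies below the intervals of ribosomal proteins, oxidative phosphorylation, chromosome complexes and translation initiation. For chromosome complexes, 2 of the 3 genes with a member are centromere-side.

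Motif matches were counted in the 200 bp of each peak, on both strands, and set beside 200 bp windows placed -83 bp from each of the 15836 protein-coding starts. A match is a description of letters and not a binding site. Motif 7 was found in 13.1% of members (10.3 to 16.6), 19.7% of induced-only promoter peaks (16.0 to 24.0), 2.42% of shared peaks away from starts and 6.26% of windows (5.89 to 6.65). Divergent pairs carried most of it. It was in 46 of the 224 members at a pair (20.5%, 15.8 to 26.3) and 11 of the 210 others (5.24%, 2.95 to 9.13). In windows it was in 11.8% at pairs and 3.68% elsewhere. Induced-only promoter peaks held it in 21.6% at pairs and 18.0% elsewhere (13.4 to 23.9), so that the classes of peaks differed mainly away from pairs.

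The DRE core CGATA was in 40.8% of members (36.3 to 45.5), compared with 49.7% of induced-only promoter peaks (44.7 to 54.8), 22.2% of shared peaks away from starts and 35.7% of windows. At divergent pairs the members (44.6%, 38.3 to 51.2) held it about as often as the windows at pairs (48.2%), and away from pairs the shares were 36.7% of members (30.4 to 43.4) and 29.9% of windows (29.1 to 30.8). The full DRE, TATCGATA, in which CGATA overlaps its own reverse complement, was in 7.83% of members (5.66 to 10.7) and 6.11% of windows. Motif 1 was in 13 members (3.0%, 1.76 to 5.06), 2.49% of windows and 7.45% of induced-only promoter peaks (5.20 to 10.6). The 13 include 2 respiratory genes, ATPsynC and ND-13A, and the ribosomal RpL7. Others were Lamp1, Cndp2, a dipeptidase, tho2 of the mRNA-exporting THO complex, Kul, a metalloprotease, and hrm. The remainder were Gprk1, a kinase of G protein receptors, Tsp42Ee, a tetraspanin, Faf2, Tapdelta of the translocon-associated complex and tum, a cytokinesis RacGAP. Their line numbers in the induced list ran from 100 at Gprk1 to 1651 at ND-13A.

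Su(Hw) matches were more frequent in the members than at starts in general. They were in 19 members (4.38%, 2.82 to 6.74), 7 induced-only promoter peaks (1.86%, 0.905 to 3.79), 88 shared peaks away from starts (21.3%, 17.6 to 25.5) and 0.398% of windows (0.311 to 0.509). Of the 19, 15 lay at no divergent pair. Matches lay a median of 35 bp from the peak centre, and 14 of 21 were within 50 bp of it (66.7%). For TCAGT the median was 44 bp and 55.7% of 174 matches were within 50 bp. For Motif 6 it was 39 bp and 60% of 5. With 21 matches and no test, no placement is read from this. The genes include Treh, the trehalase, TER94, an ATPase of protein degradation, brat, a translational repressor, and Ptth, a neuropeptide that drives ecdysone synthesis, all named after their values were seen.

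TATAAA was in 40.1% of members (35.6 to 44.8), 25.8% of induced-only promoter peaks (21.6 to 30.4), 29.2% of shared peaks away from starts and 33.1% of windows. Members at pairs held it in 45.5% (39.1 to 52.1), against 36.7% of windows at pairs. Away from pairs it was in 34.3% of members (28.2 to 40.9), an interval that includes the 31.5% of windows there. GAGAG, the word of the GAGA factor, was in 16.4% of members, 16.0% of induced-only promoter peaks and 25.7% of windows (25 to 26.4). TCAGT, the initiator word, was in 32.5% of members (28.3 to 37) and 41.9% of windows. At pairs the shares were close, with 34.4% of members (28.5 to 40.8) and 35.4% of windows. The gap lay away from pairs, with 30.5% of members (24.6 to 37) and 44.8% of windows. GC content moves with these words. Its median was 35.5% in members, 38.5% in induced-only promoter peaks, 38.0% in shared peaks away from starts and 39.5% in windows, and its part in the motif shares was not tested.

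**Figure D5:**
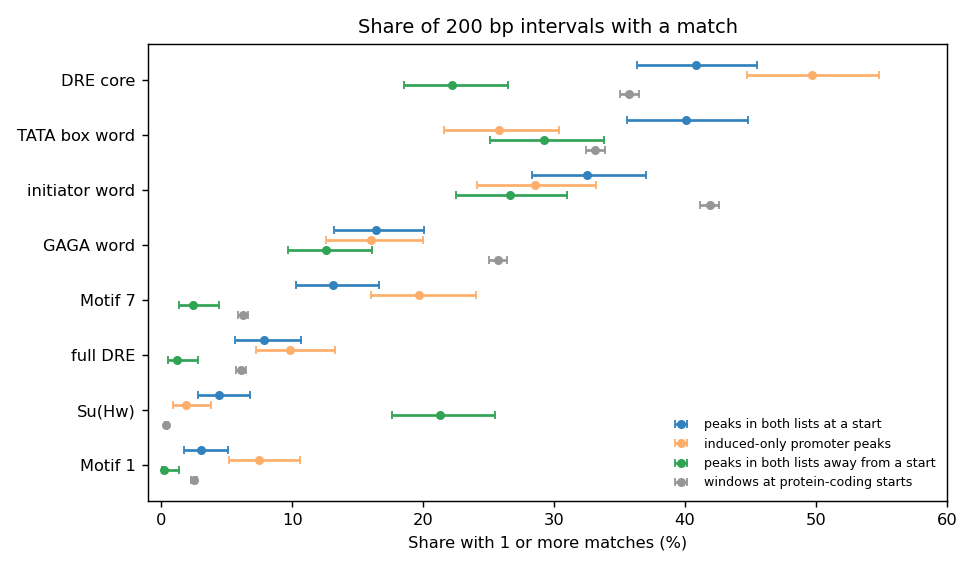
Share of 200 bp intervals with at least 1 match, with Wilson 95% intervals, for members, induced-only promoter peaks, shared peaks away from a start and windows at the members' median distance from all protein-coding starts. DRE core is CGATA, TATA box word TATAAA, initiator word TCAGT and GAGA word GAGAG. The 21.3% of Su(Hw) away from starts and the 19.7% of Motif 7 in induced-only promoter peaks stand right of the members.

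The six-base words that set members apart from start windows were rich in A and T. Words were ranked on members of 2L and 3L, and their shares were read again on 2R and 3R. TAATAA ranked first, in 45.2% of members on 2L and 3L, 29.1% on 2R and 3R and 24.5% of windows at -83 bp. Shares over all members include the members used for the ranking. For TAATAA this share was 36.4%, against 24.2% of induced-only promoter peaks and 21.5% of shared peaks away from starts. Outside the centromere-side stretches the shares were 34.2% of members and 24.3% of windows. AAAATA followed, in 57% of members on 2R and 3R, 60.6% of all members and 44.9% of windows, but also in 57.7% of induced-only promoter peaks. The word furthest below the windows was AACTGA, whose reverse complement TCAGTT contains the initiator word. It was in 13.1% of members on 2R and 3R, 11.1% of all members, 10.9% of induced-only promoter peaks and 21.3% of windows.

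The overlap rule keeps every shift below the peak width of 200 bp, so the size of the shift is a description. The median absolute shift was 28 bp, 329 members were shifted by 50 bp or less (75.8%, 71.6 to 79.6), and 9 did not move. Shared peaks away from starts had a median of 26.5 bp and 74.4% within 50 bp. The shift was over 100 bp in 21 members. The 5 largest were SCCRO3, a factor for cullin neddylation, where the induced centre lay 190 bp further downstream, CG3764 (188 bp upstream), spg, a guanine nucleotide exchange factor (157 bp downstream), CG11050 (141 bp upstream) and CG7564 (140 bp downstream). Of these 5, SCCRO3, spg and CG7564 lay at divergent pairs. Members in induced lines 1 to 198 had a median shift of 20 bp, and the medians of the later groups of lines ran from 26 to 39.5 bp. The median was 22 bp in centromere-side members and 30 bp in the others.

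Along the gene, the induced centre lay downstream of the uninduced one in 279 members (64.3%, 59.7 to 68.7) and upstream in 146, with a median of 13.5 bp downstream. It was downstream in 68.0% of members on plus-strand genes and 60.1% on minus-strand genes, and along the chromosome the median shift was 17 bp and -9 bp, respectively. The rule picked the start from the induced centre, which favours starts near that centre. When the start was picked from the midpoint of both centres, 257 of 431 shared peaks lay downstream (59.6%, 54.9 to 64.2), and when picked from the uninduced centre, 233 of 429 did (54.3%, 49.6 to 59.0). The medians were then 11 and 6 bp, and the last interval includes equal numbers each way. These ways of picking the start were chosen after the shift had been seen. With the start picked from the induced centre, 36 of 71 centromere-side members lay downstream (50.7%, 39.3 to 62) and 66.9% of the others (61.9 to 71.6), and the share was 69.2% at divergent pairs (62.9 to 74.9) and 59% at no pair (52.3 to 65.5). At a pair the choice between both starts also sets which direction counts as downstream. These contrasts were not repeated with the other ways of picking the start, so nothing is read from them.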

How the data were processed

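HMR ChIP-Seq of SL2 cells gave 2 peak lists, 1 per condition. Per the methods, the authors aligned reads to dm6 with Bowtie2 2.2.9 and kept uniquely mapped reads with SAMtools 1.3.1. HOMER 4.9 called peaks, set to 200 bp and a 2-fold excess over input. The deposited values are interval positions alone. Whether the induced libraries were pooled before calling is not stated, and 2 induced against 1 uninduced ChIP library stand behind the lists.

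Python 3.11.15, with numpy 2.4.6 and scipy 1.17.1, gave overlaps, distances, pairs and motif counts, and matplotlib 3.10.9 the plots. Starts came from 28990 transcripts of Ensembl release 115 (19860 distinct starts, transposable elements left out). The centre is the 100th base of the peak. Motif searches numbered 14. The code was tested on simulated data and recovered all planted peaks, pairs, shifts and motifs. No p-value was computed. The members and gene lists were chosen with earlier results of these data known. Most genes were named by a rule: the first 12 in line order, the first 10 at both starts of a pair, members with Motif 1, the 5 largest shifts, those at the limits, list genes, genes with 2 members, and the first member on 2L, 3L and 3R with 3 or more CGATA. Genes outside this rule are said in the text to have been named after their values were seen. Alternatives varied the start limit, the overlap, the starts used, the pair spacing, the motif window and the length of the lists. Some items withheld for evaluation are not reported here by name.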

Additional observations from a re-analysis of the deposited data

How the results depend on the processing

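The number of members was 251 with a start limit of 100 bp and 251 in the first 990 induced and 712 uninduced lines, and it stayed within 1.5 times of 434 under the other 4 alternatives. The share at divergent pairs was 38.2% with starts up to 500 bp apart, 56.9% up to 2000 bp, 57.8% with genes of any biotype, 42.6% in those first lines and 61.4% without the centromere-side stretches. Over all protein-coding starts, the first 3 of these settings gave 23.2%, 40.5% and 34.8%. In those first lines the median absolute shift was 25 bp and Motif 7 was in 9.96% of members. The share of ribosomal protein genes with a member was 18.2% with a start limit of 100 bp and 20.8% in those first lines, and that of centromere-side genes was 40.3% with the limit of 100 bp. The share shifted downstream was 59.6% with the start chosen from the midpoint and 54.3% from the uninduced centre.

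Motif shares follow the window by construction. Within 150 bp and within 50 bp of the centre they were 53.9% and 22.1% for CGATA, 12.2% and 2.76% for the DRE, 22.6% and 9.22% for GAGAG, 18.7% and 5.99% for Motif 7, 51.8% and 21.9% for TATAAA, and 41.9% and 19.1% for TCAGT. Within 50 bp they were 0.922% for Motif 1 and 2.30% for Su(Hw). Apart from the windows, the cause of these moves was not tested. The other 36 of 64 alternatives stayed within the 95% interval of the value given, or within 1.5 times for the count.

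Alternatives that pick the start otherwise, leave out the centromere-side stretches or vary the member rule for gene shares were chosen after seeing the data. No paired analysis was possible because the lists carry no values per replicate, and no replicate was left out for that reason. Depth is unknown and the lists give no score.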
